A study of Oryctolagus cuniculus with 16 samples.

Results

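The comparison described here sets bone around a roughened titanium implant against bone around a smooth one of the same metal. It rests on 8 of the 16 libraries of the study, chosen by the implant type in the labels: 4 SLA Ti libraries and 4 Turned Ti libraries. SLA Ti is titanium whose surface was sandblasted with large grit and then etched with acid. Turned Ti is commercially pure titanium left as machined. Each of 4 rabbits carried 1 implant of each kind, beside a turned copper implant (Turned Cu) and a site labelled Sham, in its 2 tibiae. The labels give no strain, genotype or age for the animals used here, and no drug treatment. The implants were taken out after 10 days, what adhered inside each drill hole was collected with a curette, and its total RNA was sequenced. The replicate number is the rabbit, so the 4 libraries of a group come from separate animals and each SLA Ti library has a Turned Ti partner from the same animal.

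A titanium implant becomes fixed in bone in stages. A clot and an acute inflammatory infiltrate come first, neutrophils ahead of macrophages, and mesenchymal cells then invade, form a provisional matrix and differentiate into osteoblasts, while osteoclasts remodel the drilled bone. Roughened titanium is known for closer bone contact than smooth titanium, and the question posed by this pair of groups is whether the transcripts of the surrounding bone differ with the surface alone.

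Library totals ran from 10249480 to 17457473 counts in SLA Ti and from 10664681 to 19217546 in Turned Ti. Much of this was ribosomal RNA. Nuclear rRNA took 5.23%, 1.83%, 4.65% and 44.8% of counts in SLA Ti replicates 1 to 4, against 0.349%, 11%, 28.4% and 49.6% in Turned Ti. The differences within rabbits 1 to 4 were 4.88, -9.17, -23.8 and -4.8 percentage points, and the mean difference of -8.21 gave p = 0.571 in a two-sided exact permutation test, which does not use the pairing and whose smallest possible p with 4 against 4 is 0.0286. The share of mitochondrial rRNA (52.9% ± 10.1 in SLA Ti and 49.5% ± 11.4 in Turned Ti, SD, n = 4 each) and of mitochondrial protein-coding genes (5.62% ± 0.694 and 5.4% ± 1.9) also overlapped, with exact permutation p = 0.657 and p = 0.857. Nuclear protein-coding genes held 1730553 to 3765315 counts per SLA Ti library and 1494340 to 3960681 per Turned Ti library. Genes with at least 10 counts numbered 10833 ± 611 and 10630 ± 691 (exact permutation p = 0.629).

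Several libraries stood apart. SLA Ti replicate 3 carried far higher levels of inflammatory genes than any other titanium library, for example 2329 CPM (counts scaled to library size) of CXCL8 against 0.896 to 59 in the other 7, so values without rabbit 3 are given beside many of the results below. In both libraries of rabbit 1 several markers of bone-forming cells (ALPL, SP7 and IBSP) were low, though RUNX2 in SLA Ti replicate 1 was not: ALPL was at 6.33 CPM in SLA Ti replicate 1 and 2.04 in Turned Ti replicate 1, against 19.1 to 69.4 in the 6 libraries of the other rabbits. Turned Ti replicate 1 also held 392 CPM of 16 skeletal muscle genes in sum, against 2.93 to 10.3 CPM in the other 7 titanium libraries. In rabbits 2 to 4, 21 osteoblast and bone matrix genes summed to 11800 to 12800 CPM (SLA Ti) and 15800 to 22300 (Turned Ti). Most of each sum came from the collagen chains COL1A1 and COL1A2. SP7 was at 8.03 to 13.1 CPM in these SLA Ti libraries and 16.3 to 23.8 in their Turned Ti partners. A list of 8 epithelial genes summed to less than 1 CPM in each of the 8 titanium libraries. In bulk tissue, fewer cells of a type and less RNA per cell cannot be told apart.

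Across all genes the surface left almost no call. Of 11617 genes tested with edgeR's quasi-likelihood test, with rabbit as a block and Benjamini-Hochberg adjustment, 1 was higher in SLA Ti at an adjusted p under 0.05 (0.00861%) and 0 were lower (0%). At an unadjusted p under 0.05 there were 695 genes with higher values in SLA Ti (5.98%) and 263 with lower values (2.26%). DESeq2's Wald test with the same block called more, 51 higher and 1 lower. SLA Ti replicate 3 was the highest of the 8 libraries for 48 of those 51 genes. It was also the highest for 497 of the 695, against 93, 5 and 96 for SLA Ti replicates 1, 2 and 4. Over all genes tested, SLA Ti replicates 1 to 4 were the highest for 16.2%, 2.97%, 17% and 10.4%. Genes picked as higher in SLA Ti mostly peak in an SLA Ti library, so these shares are no direct baseline. Of the 51, 39 were higher in SLA Ti in 4 of 4 rabbits, where 7.88% of all genes were. The groups did not overlap for 12 of the 51, where 1.12% of all genes lay wholly above. Both counts follow in part from picking the 51 by a test on these same libraries, so they are not independent support. Without SLA Ti replicate 3, edgeR called 0 genes, with 325 higher and 212 lower at an unadjusted p under 0.05, and DESeq2 called 4. Without rabbit 3 altogether edgeR called 0, with 203 higher (1.75%) and 125 lower (1.08%) at an unadjusted p under 0.05, and DESeq2 called 1, CXCL8. In the fits below a gene is described by its values, and a fold change is the log2 ratio of SLA Ti over Turned Ti with its SE.

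**Figure D1:**
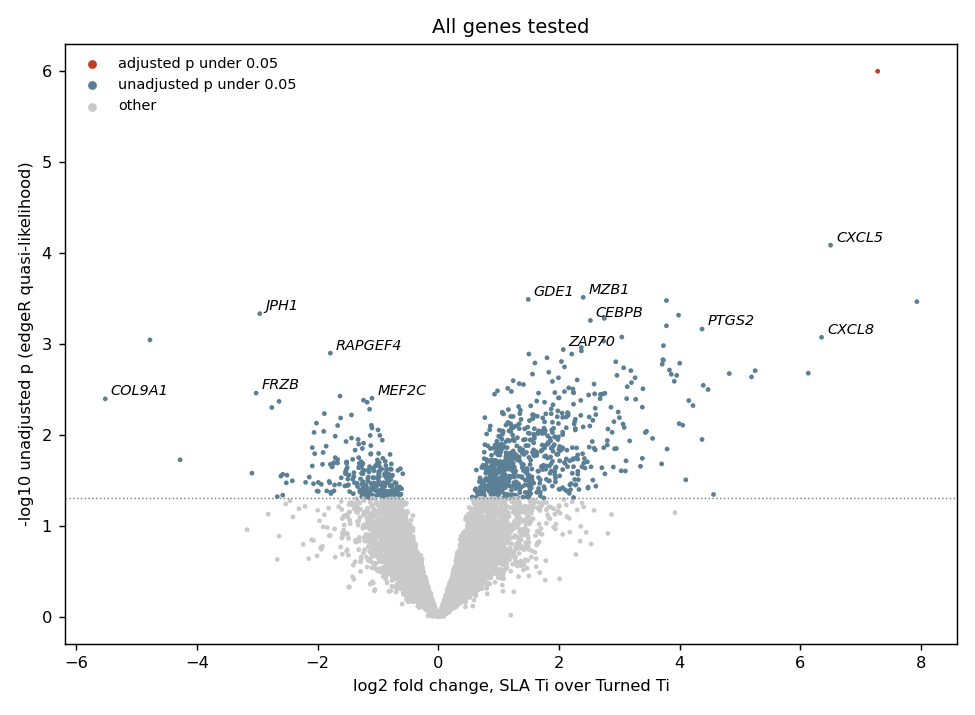
Each point is 1 of the 11617 genes tested, with the log2 fold change of SLA Ti over Turned Ti on the x axis and the -log10 of the unadjusted edgeR p on the y axis. A single gene passed at an adjusted p under 0.05, and more genes lie past the dotted line at an unadjusted p of 0.05 on the SLA Ti side (695) than on the Turned Ti side (263).

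The gene that passed, ENSOCUG00000013321, is protein-coding and carries no name in the deposited table, which places it on the plus strand of scaffold GL018800 at bases 37646 to 40024 (build not stated). Its counts were 1, 1, 467 and 5 in SLA Ti replicates 1 to 4 and 0, 0, 2 and 0 in Turned Ti. Nearly all of its reads came from SLA Ti replicate 3. The ratio of the summed counts per scaled library was 243, with an exact 95% interval of 66.8 to 2010 that covers counting error only, and the adjusted p was 0.0117. Without SLA Ti replicate 3 the adjusted p was 0.246, without Turned Ti replicate 3 it was 1, and without all libraries of rabbit 4 it was 0.146.

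Attractants of neutrophils had some of the widest differences between the surfaces. CXCL8 (interleukin 8) and CXCL5 are chemokines that draw neutrophils, and lie near each other on chromosome 15 (CXCL8 at 76368959 to 76371691 and CXCL5 at 76297487 to 76298504, both on the minus strand). CXCL8 was at 4.64, 3.32, 2329 and 59 CPM in SLA Ti replicates 1 to 4, against 1, 1.13, 0.896 and 1.41 CPM in Turned Ti. All 4 SLA Ti libraries lay above all 4 Turned Ti libraries, by a few fold in rabbits 1 and 2 and by far more in rabbits 3 and 4. The edgeR fold change was 6.35 ± 1.54 (95% interval 3.08 to 9.62, adjusted p = 0.558), and 3.62 without rabbit 3 (unadjusted p = 0.00149). DESeq2 gave an adjusted p of 0.000118 over all libraries, 0.0014 without SLA Ti replicate 3 and 0.00828 without rabbit 3. For comparison, CXCL8 averaged 2303 CPM in the Turned Cu libraries and 1.24 in Sham.

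CXCL5 was at 1.46, 0.296, 127 and 18.4 CPM in SLA Ti, against 0.0323, 0.148, 0.359 and 0.249 CPM in Turned Ti. It was higher in the SLA Ti library of every rabbit, although SLA Ti replicate 2 lay below Turned Ti replicate 3. The edgeR fold change was 6.5 ± 1.23 (adjusted p = 0.48), and 4.8 without rabbit 3 (unadjusted p = 0.00152). In edgeR it passed without SLA Ti replicate 2 (adjusted p = 0.0146), its lowest SLA Ti library. It passed in no other edgeR fit that left out a library or a rabbit. In DESeq2 it passed over all libraries (adjusted p = 4.45e-05) and without SLA Ti replicate 3 (adjusted p = 0.0014). Without rabbit 3 it did not pass in DESeq2 (adjusted p = 0.286).

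Of the prostaglandin and interleukin 1 genes, PTGS2, IL1R2 and IL1B had their highest titanium value in SLA Ti replicate 3. PTGS2 (cyclooxygenase 2, the inducible enzyme of prostaglandin synthesis) was at 11.3, 2.57, 395 and 34.9 CPM in SLA Ti, against 1.39, 1.97, 1.4 and 2.9 CPM in Turned Ti. IL1R2, a decoy receptor that binds interleukin 1, was at 5.3, 1.18, 113 and 16.3 CPM in SLA Ti, against 1.16, 1.03, 0.43 and 1.08 CPM in Turned Ti. IL1B, the main secreted interleukin 1, was at 9.71, 2.14, 936 and 48.2 CPM in SLA Ti, against 0.809, 1.48, 0.825 and 5.89 CPM in Turned Ti. In rabbit 2 the SLA Ti and Turned Ti values of these 3 genes were close, while in rabbits 1, 3 and 4 they were several fold or more apart. Fold changes were 4.37 ± 1.03 for PTGS2, 3.73 ± 0.93 for IL1R2 and 4.47 ± 1.28 for IL1B, all at an edgeR adjusted p of 0.558. Without rabbit 3 they were 2.77, 2.34 and 2.46, at unadjusted p of 0.0042, 0.00292 and 0.0024.

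Other cytokines were low in counts. IL6 was at 0.0384, 0.164, 1.18 and 6.25 CPM in SLA Ti, against 0.0323, 0.0492, 0.108 and 0.0829 CPM in Turned Ti (fold change 3.71 ± 0.97, adjusted p = 0.558), with 82 of the 111 SLA Ti counts in replicate 4. IL1A had 0, 6, 52 and 60 counts in SLA Ti, against 0, 0, 1 and 1 in Turned Ti, a ratio of 60.4 with an exact 95% counting interval of 16.4 to 505. TNF was at 0.23, 0.362, 6.01 and 3.43 CPM in SLA Ti, against 0.0647, 0.591, 0.215 and 0.249 CPM in Turned Ti, and in rabbit 2 the Turned Ti value was the higher one. For these genes rabbit 4 as well as rabbit 3 carried the difference. With only the titanium libraries, IL6 and IL1A did not pass the filter on low counts and were not tested. IL1A did not pass it without Turned Cu either.

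As a list, the inflammatory cytokines and chemokines had the highest median of the 44 lists with a tested member. The lists were chosen with earlier results of these data known, so this rank and the list shares here and below are not independent support. Of 27 genes written down, 18 were named in the table and 12 could be tested. The filter on low counts used all 16 libraries, so a member could be tested through its level in Turned Cu. The list summed to 4110 to 6330 CPM in the Turned Cu libraries. None passed the edgeR adjusted threshold, 8 had an unadjusted p under 0.05 and all 8 were higher in SLA Ti, where 5.98% of all genes tested were. The median fold change was 3.38, against -0.01 over all genes tested, and by rabbit it was 0.14, 0.57, 4.19 and 3.18. Without rabbit 3 the median was 2.46. Of 11 testable members 6 then had an unadjusted p under 0.05, where 1.75% of all genes were higher. The monocyte attractant CCL2 and the interferon-induced CXCL10, with fold changes of 0.2 and -1.14, had unadjusted p of 0.732 and 0.235. Close relatives among the chemokines can share reads, so the split between paralogs is uncertain.

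**Figure D2:**
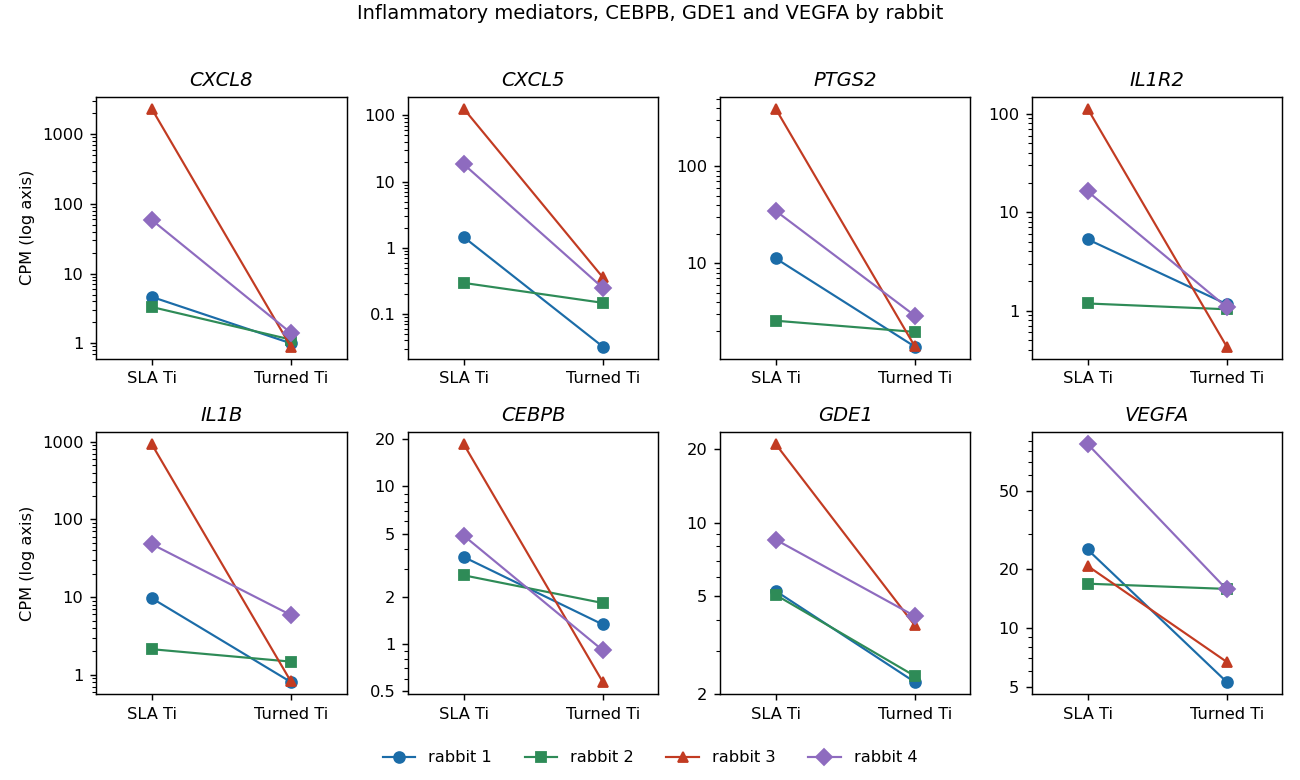
CPM on a log axis for 8 genes, with a line for each rabbit joining its SLA Ti library (left) to its Turned Ti library (right). For CXCL8 all 4 lines descend from SLA Ti to Turned Ti, from 2329 CPM in rabbit 3 and from 3.32 to 59 CPM in the other rabbits.

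The transcription factor CEBPB, which drives inflammatory gene programs in myeloid cells, was at 3.57, 2.73, 18.6 and 4.88 CPM in SLA Ti, against 1.33, 1.82, 0.574 and 0.912 CPM in Turned Ti. GDE1, a glycerophosphodiester phosphodiesterase, was at 5.26, 5.07, 21 and 8.53 CPM in SLA Ti, against 2.23, 2.36, 3.8 and 4.15 CPM in Turned Ti. Both genes separated the groups without overlap, and in both the other 3 rabbits pointed the same way as rabbit 3. The fold changes were 2.52 ± 0.58 for CEBPB and 1.49 ± 0.32 for GDE1 (adjusted p = 0.558 each), and 1.46 and 1.11 without rabbit 3 (unadjusted p = 0.00406 and 0.00397). Over all genes tested, 130 (1.12%) had all 4 SLA Ti libraries above all 4 Turned Ti libraries, and 155 (1.33%) had all 4 below.

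OLR1, SFTPD, ADORA3 and SLA complete the 10 named genes with the smallest p on the higher side, beside MZB1, which is described below. OLR1, a scavenger receptor for oxidised lipoprotein, was at 0.614, 0.625, 7.35 and 3.58 CPM in SLA Ti, against 0.259, 0.197, 0.179 and 0 CPM in Turned Ti. SFTPD, a secreted collectin that binds microbial sugars, was at 2.03, 1.35, 25 and 4.04 CPM in SLA Ti, against 0.388, 0.787, 0.143 and 0.746 CPM in Turned Ti. Neither gene overlapped between groups. ADORA3, the adenosine A3 receptor, had 21, 2, 65 and 6 counts in SLA Ti, against 2, 0, 2 and 1 in Turned Ti. ADORA3 did not pass the filter on low counts with only the titanium libraries or without Turned Cu, so there it was not tested. The gene whose symbol happens to be SLA, encoding the Src-like adaptor of immune cells, was at 4.41, 1.22, 26.6 and 3.96 CPM in SLA Ti, against 0.679, 0.246, 0.61 and 2.65 CPM in Turned Ti. Without rabbit 3 the fold changes of OLR1, SFTPD, ADORA3 and SLA were 2.9, 1.83, 3 and 1.59, against 3.78, 3.04, 3.98 and 2.74 with it. The reads of OLR1 and SLA each overlap an unnamed gene on the opposite strand, and the counting is not stated to use strand.

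Neutrophil markers were higher in SLA Ti mainly in rabbits 1 and 3. In these rabbits SLA Ti sat at the proximal end of the tibia and Turned Ti at the distal end. In rabbits 2 and 4 the ends were swapped, and within a rabbit surface and end cannot be told apart. Of 15 tested members of an 18-gene list of mature neutrophil markers, 10 had an unadjusted p under 0.05, all higher in SLA Ti, where 5.98% of all genes tested were. The list's median fold change was 2.19, and by rabbit 2.66, 0.18, 7.04 and 0.5. Without rabbit 3 the median was 1.43, with 9 members at an unadjusted p under 0.05, where 1.75% of all genes were higher. The list summed to 739, 398, 2760 and 713 CPM in SLA Ti, against 281, 507, 323 and 548 CPM in Turned Ti, so the groups overlapped. The formyl peptide receptors sense bacterial peptides, and both were also higher in SLA Ti in rabbit 4. FPR2 was at 7.6, 2.14, 71.6 and 17.4 CPM in SLA Ti, against 1.07, 1.03, 0.143 and 3.07 CPM in Turned Ti (fold change 3.26 ± 0.9, adjusted p = 0.558, and 2.23 without rabbit 3, unadjusted p = 0.000877). FPR1 was at 16.4, 2.07, 41.8 and 31.1 CPM in SLA Ti, against 2.49, 2.07, 0.394 and 10.9 CPM in Turned Ti, and was level in rabbit 2. MMP9, MNDA and CYBB, also on the list, had fold changes of -0.81, -0.42 and -0.01.

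Genes of the granule proteins that neutrophil precursors make in marrow also had their highest list medians in rabbits 3 and 1. In rabbit 4 they leaned the other way. MPO (myeloperoxidase) was at 54.7, 6.97, 27.6 and 59.8 CPM in SLA Ti, against 19.8, 1.67, 0.538 and 124 CPM in Turned Ti. LCN2 (lipocalin 2) was at 640, 40.7, 470 and 426 CPM in SLA Ti, against 104, 20.9, 2.9 and 534 CPM in Turned Ti. In both, SLA Ti was higher in rabbits 1, 2 and 3 and Turned Ti in rabbit 4. The 8 tested members of 15 had a median fold change of 1.38, by rabbit 2.46, 1.6, 5.54 and -0.46, and none had an unadjusted p under 0.05. Over all genes tested 5.98% were higher and 2.26% lower at that threshold, so a count of none among 8 is not informative. The part of infiltrating leukocytes or of marrow in the inflammatory result was not tested.

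Macrophage markers showed no common direction. Of 15 tested members, 3 had an unadjusted p under 0.05 and higher values in SLA Ti, where 5.98% of all genes did. Without rabbit 3 the number was 0, where 1.75% of all genes were higher. The list had a median fold change of -0.17, by rabbit -1.37, 0.17, -0.26 and 0.9, and the list summed to 161 to 552 CPM in SLA Ti and 149 to 838 in Turned Ti. CD68, a lysosomal marker of macrophages and osteoclasts, was at 10.1, 53, 125 and 53.3 CPM in SLA Ti, against 74.3, 49.2, 49.6 and 26.2 CPM in Turned Ti (fold change 0.12 ± 0.59, 95% interval -1.13 to 1.37). CD163, the haemoglobin scavenger receptor of resident macrophages, was at 10.7, 9.8, 24.6 and 5.26 CPM in SLA Ti, against 5.53, 12.7, 18.3 and 4.31 CPM in Turned Ti (0.4 ± 0.41, interval -0.46 to 1.27). Of the pro-inflammatory macrophage list, PTGS2, IL6, IL1B and TNF had an unadjusted p under 0.05, all higher in SLA Ti, while CD80, CD86 and NOS2 had fold changes of -0.58, -0.84 and -0.74. ARG1 (arginase 1) was at 0.269, 2.11, 61.4 and 7.16 CPM in SLA Ti, against 0.129, 1.67, 1.29 and 1.33 CPM in Turned Ti (fold change 3.08 ± 1.02, and 1.44 without rabbit 3, unadjusted p = 0.0992).

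The list medians of T cell and B cell genes were higher in SLA Ti in each of the 4 rabbits, on low counts. ZAP70, a kinase of T cell receptor signalling, was at 1.38, 0.526, 1.39 and 2.06 CPM in SLA Ti, against 0.129, 0.344, 0.323 and 0.497 CPM in Turned Ti. CD6, a T cell co-receptor, was at 0.537, 0.526, 0.771 and 2.06 CPM in SLA Ti, against 0.129, 0.197, 0.143 and 0.497 CPM in Turned Ti. The groups did not overlap for either gene. Fold changes were 2.07 ± 0.52 and 1.98 ± 0.61 (adjusted p = 0.558 each) and stood at 2.02 and 1.83 without rabbit 3 (unadjusted p = 0.00753 and 0.015). LCK, the kinase upstream of ZAP70, was at 0.652, 1.09, 0.925 and 2.36 CPM in SLA Ti, against 0.226, 0.394, 0.43 and 0.912 CPM in Turned Ti, again higher in SLA Ti in each rabbit. ZAP70 had 16 to 36 reads per SLA Ti library and 4 to 9 per Turned Ti library. Only 7 of 26 listed T and NK cell genes could be tested. Of these, 5 had an unadjusted p under 0.05, all higher in SLA Ti, where 5.98% of all genes tested were. The median fold change was 1.67 (by rabbit 1.41, 0.48, 1.77 and 1.73, and 1.49 without rabbit 3).

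On the B cell side, MZB1, an endoplasmic reticulum protein of antibody-secreting cells, was at 0.883, 3.85, 2.57 and 1.3 CPM in SLA Ti, against 0.0647, 1.67, 0.215 and 0.332 CPM in Turned Ti. PAX5, the transcription factor of B cell identity, was at 2.11, 0.822, 0.514 and 3.12 CPM in SLA Ti, against 0.291, 0.0492, 0.179 and 1.74 CPM in Turned Ti. Each was higher in SLA Ti within every rabbit, while the groups overlapped. Fold changes were 2.4 ± 0.52 (adjusted p = 0.558) and 2.01 ± 0.72 (adjusted p = 0.558), and 1.9 and 2.07 without rabbit 3 (unadjusted p = 0.00476 and 0.0228). Of 14 tested members of 23, 5 had an unadjusted p under 0.05, all higher in SLA Ti, where 5.98% of all genes tested were. In 4 of 4 rabbits 8 members were higher, where 7.88% of all genes tested were higher and 7.65% were lower. The list median was 1.09, by rabbit 0.69, 0.88, 1.19 and 0.78. Its summed level was 60.4, 75.5, 74.5 and 82.8 CPM in SLA Ti, against 49.7, 68.5, 65.5 and 66.2 CPM in Turned Ti.

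Antigen presentation genes summed to 177, 177, 604 and 269 CPM in SLA Ti, against 165, 141, 149 and 156 CPM in Turned Ti, and interferon response genes to 86.1, 58.4, 221 and 72.6 CPM in SLA Ti, against 52.4, 56.9, 47.6 and 62.3 CPM in Turned Ti. Both sums were highest in SLA Ti replicate 3. Of 13 antigen presentation genes tested, 9 had an unadjusted p under 0.05, all higher in SLA Ti, where 5.98% of all genes were. Without rabbit 3 only 1 member did, where 1.75% of all genes were higher. TAP1, the peptide transporter, was at 20.9, 6.58, 148 and 22.9 CPM in SLA Ti, against 6.73, 5.27, 2.94 and 13.8 CPM in Turned Ti (fold change 2.27 ± 0.75, and 0.87 without rabbit 3, unadjusted p = 0.0589). RSAD2 (viperin), an interferon-induced antiviral enzyme, was at 4.57, 2.7, 18.6 and 3.58 CPM in SLA Ti, against 0.679, 1.48, 0.143 and 1.33 CPM in Turned Ti (2.69 ± 0.78, and 1.52 without rabbit 3, unadjusted p = 0.0275). The 15 interferon response genes tested had a median fold change of 0.66. Higher values at an unadjusted p under 0.05 were found for 4 over all rabbits and 1 without rabbit 3. Over all genes tested those shares were 5.98% and 1.75%. Of 13 complement genes tested, 6 had higher values in SLA Ti in all 4 rabbits, where 7.88% of all genes did, the 3 chains of C1q among them. C1QA was at 10.3, 2.73, 16.6 and 2.67 CPM in SLA Ti, against 1.13, 2.61, 1.65 and 1.74 CPM in Turned Ti (1.9 ± 0.7, and 1.49 without rabbit 3, unadjusted p = 0.0562).

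Glycolytic and immediate early genes leaned the same way. Of 27 glycolysis and hypoxia genes tested, 14 had an unadjusted p under 0.05, all higher in SLA Ti, where 5.98% of all genes were, with a median fold change of 1 (by rabbit 0.28, 0.09, 2.03 and 1.28). Without rabbit 3 it was 0.51, with 4 such genes of 26, where 1.75% of all genes were higher. SLC2A3, the glucose transporter GLUT3, was at 36.9, 12.5, 433 and 56.3 CPM in SLA Ti, against 13.6, 7.33, 6.1 and 17.7 CPM in Turned Ti (2.49 ± 0.73, and 1.35 without rabbit 3, unadjusted p = 0.0149). VEGFA, the main growth factor of new vessels, was at 25.1, 16.8, 20.7 and 86.6 CPM in SLA Ti, against 5.3, 15.8, 6.71 and 15.7 CPM in Turned Ti. The groups did not overlap, and SLA Ti replicate 4 was the highest. The fold change was 1.66 ± 0.48 (adjusted p = 0.558), 1.64 without rabbit 3 (unadjusted p = 0.0182) and 0.96 without SLA Ti replicate 4 (unadjusted p = 0.0586). Of 19 immediate early genes tested, which respond to stimuli within minutes, 9 had an unadjusted p under 0.05, all higher in SLA Ti. Without rabbit 3 the number was 6, and the shares of all genes were 5.98% with rabbit 3 and 1.75% without. FOS was at 204, 27.2, 504 and 78 CPM in SLA Ti, against 28.5, 26.4, 9.82 and 28.2 CPM in Turned Ti (2.58 ± 0.72, and 1.42 without rabbit 3, unadjusted p = 0.024).

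**Figure D3:**
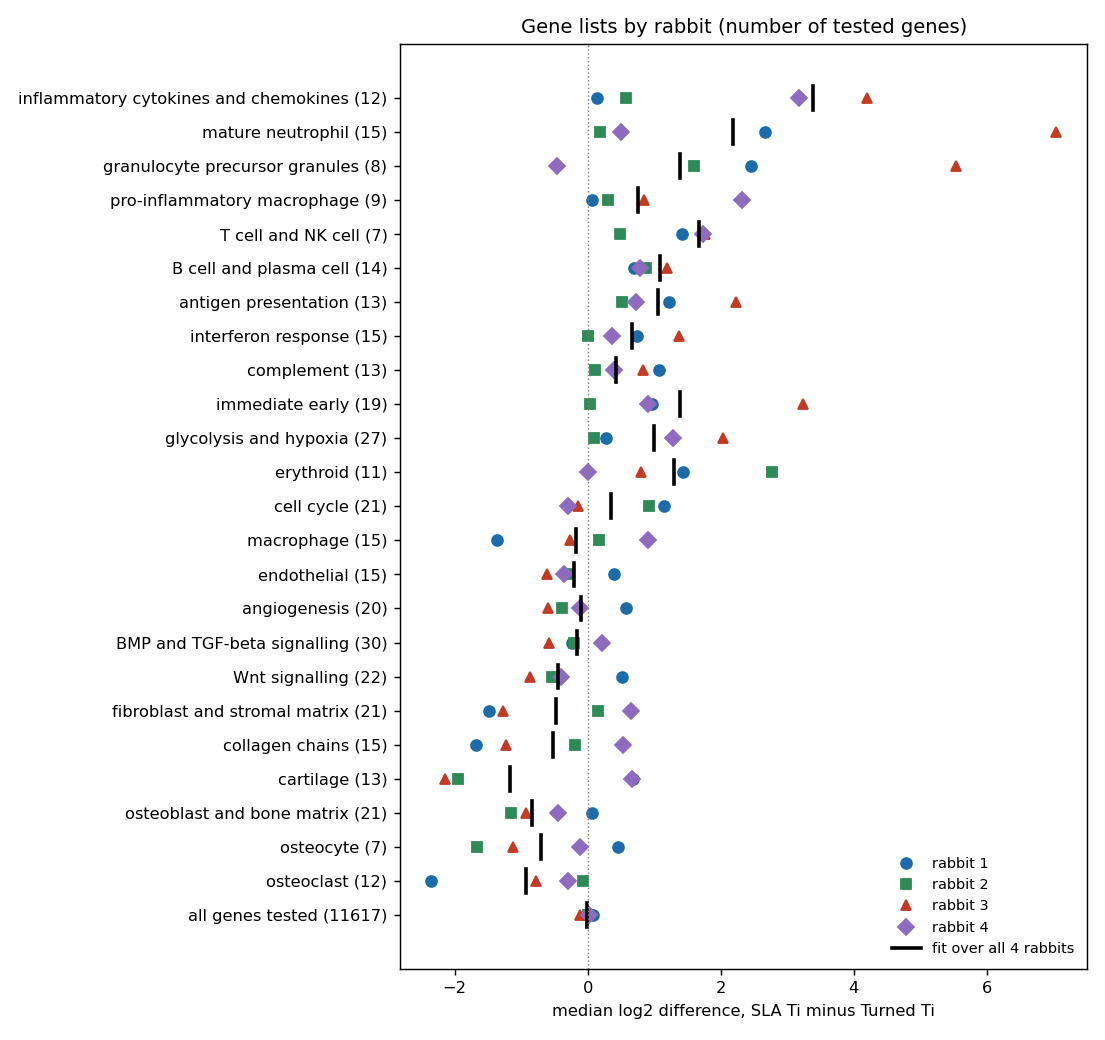
Median log2 difference, SLA Ti minus Turned Ti, of the tested genes in each list, by rabbit (symbols) and in the edgeR fit over all 4 rabbits (bars), with the number of tested genes in brackets. Rabbit 3 lies farthest right for the mature neutrophil list (7.04), the 4 rabbits lie between 0.69 and 1.19 for the B cell and plasma cell list, and all genes tested lie near 0.

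At an unadjusted p under 0.05, genes with lower values in SLA Ti were fewer than those with higher values (263 against 695). Among the 263, SLA Ti replicates 1 to 4 were the lowest of the 8 libraries for 146, 4, 30 and 79. Over all genes tested they were the lowest for 15.2%, 4.32%, 12.1% and 14.8%. Genes picked as lower in SLA Ti mostly have their lowest value in an SLA Ti library, so these shares are no direct baseline. The 263 became 87 without SLA Ti replicate 1, 95 without rabbit 1, 73 without Turned Ti replicate 3, 132 without Turned Ti replicate 1, 138 without SLA Ti replicate 4, 736 without Turned Ti replicate 2 and 501 without Turned Ti replicate 4. JPH1 (junctophilin 1), which tethers the plasma membrane to the endoplasmic reticulum, had the smallest p among named genes on this side (chromosome 3, 90056660 to 90150485, minus strand). It was at 0.192, 0.362, 0.154 and 0.152 CPM in SLA Ti, against 2.13, 2.71, 1.25 and 0.912 CPM in Turned Ti. All SLA Ti libraries lay below all Turned Ti libraries, on 2 to 11 reads per SLA Ti library and 11 to 66 per Turned Ti library. The fold change was -2.96 ± 0.67 (95% interval -4.39 to -1.54, adjusted p = 0.558), and -2.99 without rabbit 3 (unadjusted p = 0.00202).

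MEF2C, a transcription factor of osteocytes, muscle and endothelium that regulates the SOST enhancer, was at 4.68, 10.2, 11.9 and 7.39 CPM in SLA Ti, against 12.9, 19.9, 26.5 and 12.9 CPM in Turned Ti. DTNA (dystrobrevin alpha), of the dystrophin complex, was at 0.384, 0.625, 0.617 and 0.305 CPM in SLA Ti, against 1.84, 1.77, 1.36 and 1.08 CPM in Turned Ti. RAPGEF4 (EPAC2), a cyclic AMP sensor, was at 0.384, 1.78, 1.64 and 0.533 CPM in SLA Ti, against 1.58, 5.61, 4.73 and 2.74 CPM in Turned Ti. The groups did not overlap for MEF2C and DTNA, and for RAPGEF4 they met only because Turned Ti replicate 1 fell below 2 SLA Ti libraries. Fold changes were -1.1 ± 0.32, -1.63 ± 0.48 and -1.79 ± 0.45 (adjusted p = 0.558 each), and -1.08, -1.85 and -1.95 without rabbit 3 (unadjusted p = 0.00556, 0.00561 and 0.000529).

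ROBO1, a receptor for Slit guidance ligands, was at 7.1, 17.8, 9.61 and 5.03 CPM in SLA Ti, against 17.8, 23.8, 36.8 and 10.6 CPM in Turned Ti (-1.24 ± 0.37). PIK3R3, a regulatory subunit of phosphoinositide 3-kinase, was at 1.19, 3.82, 3.65 and 1.22 CPM in SLA Ti, against 3.85, 6.59, 6.71 and 3.65 CPM in Turned Ti (-1.18 ± 0.35). Both were lower in SLA Ti in each rabbit, with overlap between rabbits. SLITRK6 and CRISPLD1, with 1 to 5 reads per SLA Ti library, had fold changes of -2.64 ± 0.79 and -2.76 ± 0.81. The edgeR adjusted p was 0.558 for each of these 4 genes.

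**Figure D4:**
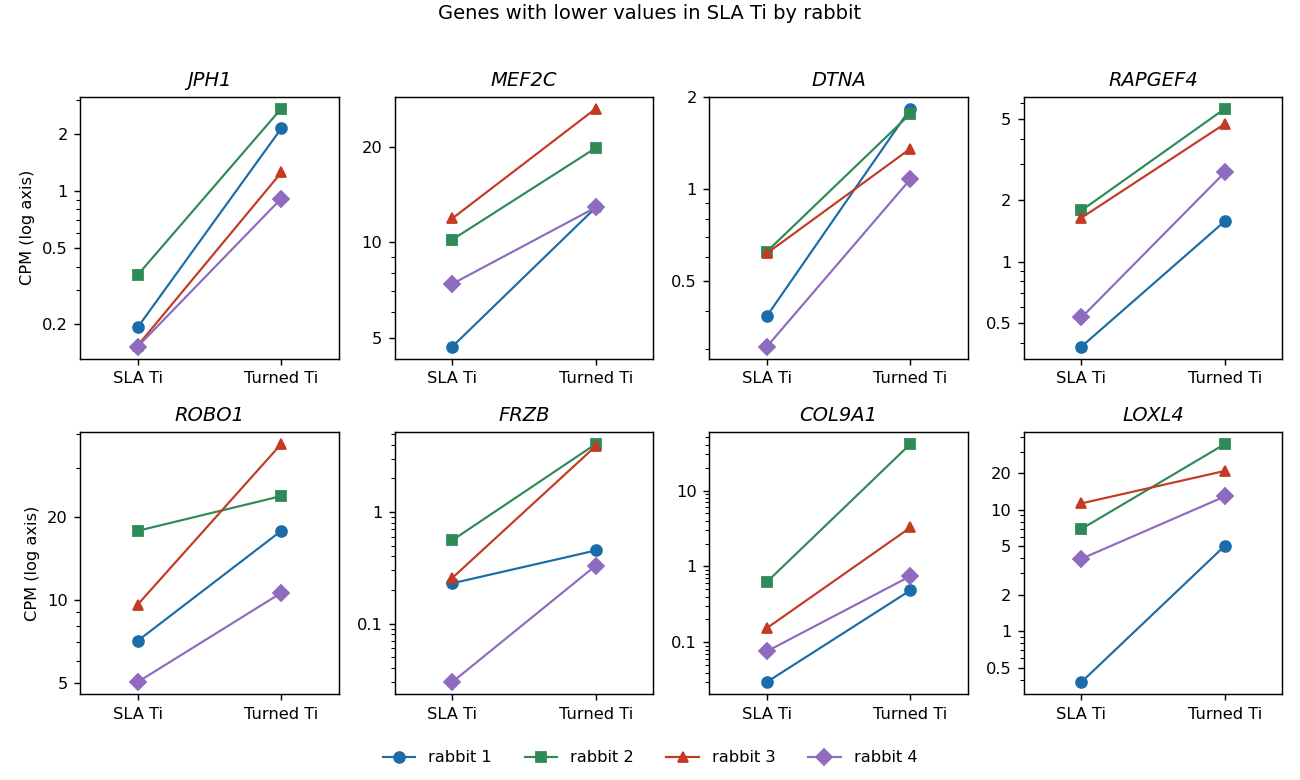
CPM on a log axis for 8 genes with lower values in SLA Ti, with a line for each rabbit from its SLA Ti library (left) to its Turned Ti library (right), and values of 0 drawn at the bottom of the axis (FRZB in SLA Ti replicate 4 and COL9A1 in SLA Ti replicate 1). Every line ascends from SLA Ti to Turned Ti, and for JPH1 all SLA Ti points (0.152 to 0.362 CPM) lie below all Turned Ti points (0.912 to 2.71 CPM).

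Cartilage genes differed most in rabbits 2 and 3. COL2A1, the main collagen of cartilage, was at 1.88, 23.4, 5.09 and 9.75 CPM in SLA Ti, against 19.5, 1661, 108 and 23 CPM in Turned Ti. COL9A1, a collagen that decorates cartilage fibrils, was at 0, 0.625, 0.154 and 0.0762 CPM in SLA Ti, against 0.485, 41.1, 3.26 and 0.746 CPM in Turned Ti, and 836 of its 951 Turned Ti counts were in replicate 2. FRZB, a secreted Wnt antagonist of cartilage and bone, was at 0.23, 0.559, 0.257 and 0 CPM in SLA Ti, against 0.453, 4.08, 3.91 and 0.332 CPM in Turned Ti. All 3 were lower in SLA Ti in each rabbit. Fold changes were -4.28 ± 1.63, -5.52 ± 1.57 and -3.02 ± 0.84 (adjusted p = 0.558 each), and -4.36, -5.84 and -2.52 without rabbit 3. Without Turned Ti replicate 2 those of COL2A1 and COL9A1 were -1.7 (unadjusted p = 0.25) and -3.51 (unadjusted p = 0.0752). Of 13 cartilage genes tested, 2 had an unadjusted p under 0.05 and lower values in SLA Ti and 1 (MATN1, 0.99 ± 0.45) higher values. Over all genes tested 2.26% were lower and 5.98% higher. The list median was -1.16, by rabbit 0.68, -1.95, -2.15 and 0.66, and -0.72 without rabbit 3. The summed list was at 153 to 803 CPM in SLA Ti and 297 to 3370 in Turned Ti.

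Of the bone-forming genes, RUNX2, SP7 and ALPL had lower values in SLA Ti in rabbits 2, 3 and 4 and higher values in rabbit 1, and none of these passed the test. RUNX2, the master transcription factor of osteoblasts, was at 5.49, 6.05, 5.6 and 5.33 CPM in SLA Ti, against 2.78, 10.3, 11.2 and 10.3 CPM in Turned Ti. SP7 (osterix), which acts after RUNX2, was at 0.921, 8.03, 13.1 and 10.2 CPM in SLA Ti, against 0.55, 23.8, 21 and 16.3 CPM in Turned Ti. ALPL, the alkaline phosphatase of mineralising cells, was at 6.33, 19.1, 24.2 and 21.3 CPM in SLA Ti, against 2.04, 69.4, 64.4 and 40.7 CPM in Turned Ti. In each of these genes the SLA Ti value was below its partner in rabbits 2, 3 and 4 and above it in rabbit 1. The fold changes over all 4 rabbits were -0.58 ± 0.4 (95% interval -1.44 to 0.28), -0.89 ± 0.74 (-2.47 to 0.69) and -1.14 ± 0.75 (-2.73 to 0.45), with unadjusted p of 0.168, 0.248 and 0.148.

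Matrix genes made later by osteoblasts are next. IBSP (bone sialoprotein) was at 1.73, 44.4, 128 and 40.3 CPM in SLA Ti, against 1.2, 225, 365 and 120 CPM in Turned Ti (-1.72 ± 1.01). BGLAP (osteocalcin), a late osteoblast product, was at 0.307, 4.54, 12 and 11.5 CPM in SLA Ti, against 0.42, 10.8, 9.36 and 15.8 CPM in Turned Ti (-0.5 ± 1.1). COL1A1, a chain of the main bone collagen, was at 702, 4598, 3432 and 6790 CPM in SLA Ti, against 1152, 9941, 4642 and 6313 CPM in Turned Ti (-0.56 ± 0.79). Its partner chain COL1A2 was at 975, 6915, 7115 and 4364 CPM in SLA Ti, against 3122, 10864, 12612 and 8388 CPM in Turned Ti (-0.94 ± 0.66, unadjusted p = 0.177), lower in SLA Ti in each rabbit. SPARC (osteonectin) was at 184, 529, 653 and 249 CPM in SLA Ti, against 562, 644, 1419 and 438 CPM in Turned Ti (-0.97 ± 0.45, unadjusted p = 0.0451), also lower in each rabbit. The gene model of ATOX1 overlaps SPARC on the same strand, so reads of the pair may be split between them.

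Over the 21 osteoblast and bone matrix genes that could be tested, of 24 written down, the median fold change was -0.83, against -0.01 over all genes. By rabbit it was 0.06, -1.15, -0.93 and -0.45, and without rabbit 3 it was -0.79. SPARC was the only member at an unadjusted p under 0.05, where 2.26% of all genes were lower. In 4 of 4 rabbits 6 members were lower, where 7.65% of all genes were. The list summed to 1920, 12800, 12000 and 11800 CPM in SLA Ti, against 6750, 22300, 20500 and 15800 CPM in Turned Ti, lower in SLA Ti in each pair but with overlapping ranges. Most of each sum came from COL1A1 and COL1A2, so it says little of the other members. In rabbit 1 RUNX2, SP7 and ALPL were higher in SLA Ti, though the sum was lower. Among osteocyte genes, DMP1, a matrix phosphoprotein, was at 1.11, 43.7, 130 and 34.5 CPM in SLA Ti, against 0.356, 138, 208 and 93.1 CPM in Turned Ti (-1.18 ± 1.07, unadjusted p = 0.286). PHEX, an endopeptidase of phosphate control, was at 0.307, 5.56, 28.6 and 3.12 CPM in SLA Ti, against 0.194, 36.9, 65 and 18.9 CPM in Turned Ti (-1.84 ± 1.07, and -2.36 without rabbit 3, unadjusted p = 0.0305).

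**Figure D5:**
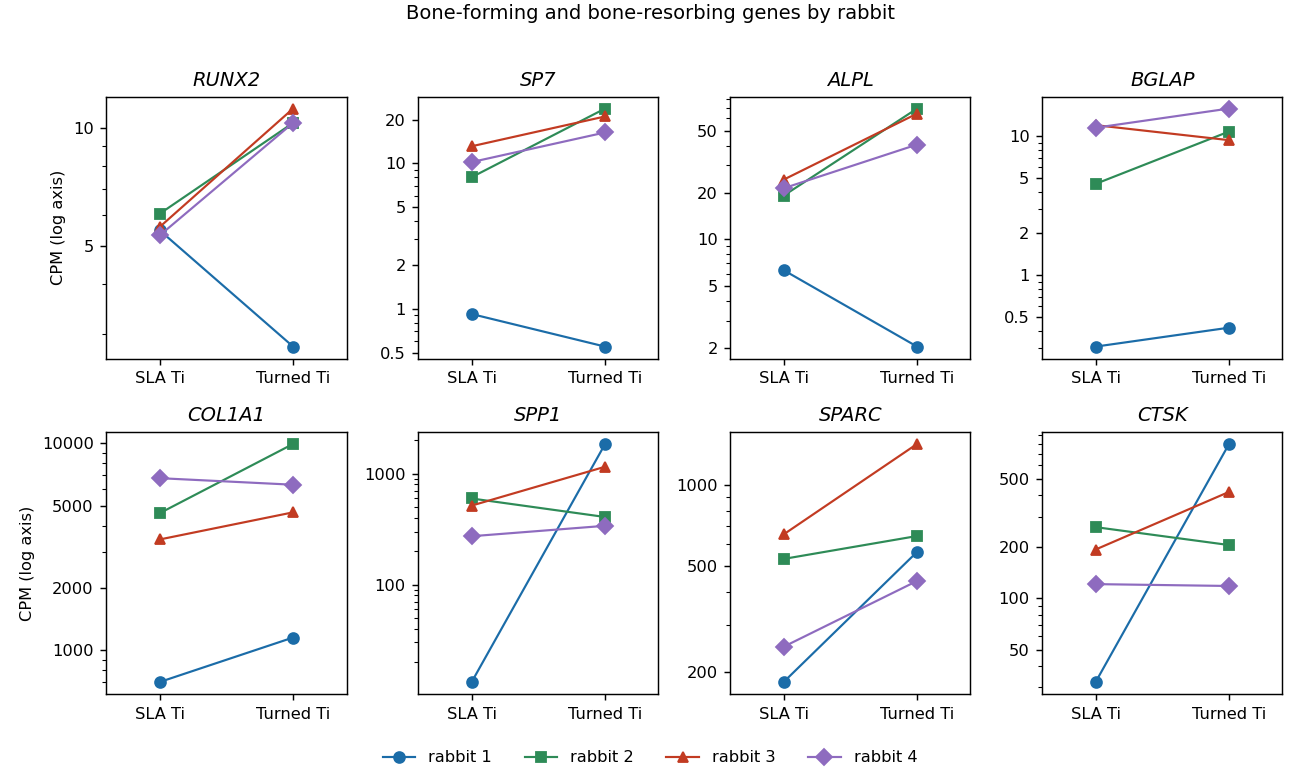
CPM on a log axis for 8 genes of bone formation, bone matrix and bone resorption, with a line for each rabbit from its SLA Ti library (left) to its Turned Ti library (right). RUNX2, SP7 and ALPL are higher on Turned Ti in rabbits 2, 3 and 4 and on SLA Ti in rabbit 1, and CTSK of rabbit 1 is at 32.3 CPM on SLA Ti and 802 CPM on Turned Ti.

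Osteoclast genes were lower in SLA Ti most strongly in rabbit 1. CTSK (cathepsin K), the protease that digests bone collagen, was at 32.3, 261, 193 and 121 CPM in SLA Ti, against 802, 205, 420 and 118 CPM in Turned Ti (-1.47 ± 0.71, unadjusted p = 0.0562, and -0.66 without Turned Ti replicate 1). ATP6V0D2, an osteoclast subunit of the proton pump, was at 0.46, 17.5, 13.2 and 5.03 CPM in SLA Ti, against 68, 16.2, 31.7 and 9.87 CPM in Turned Ti (-2.42 ± 1.03, unadjusted p = 0.0322). In rabbit 2 the SLA Ti value of both genes was slightly the higher one, and for CTSK in rabbit 4 as well. DESeq2 called ATP6V0D2 only without SLA Ti replicate 3 (adjusted p = 0.0276), and gave an adjusted p of 0.181 over all libraries. The 12 tested members of 20 had a median fold change of -0.92, by rabbit -2.35, -0.07, -0.78 and -0.29. Lower values at an unadjusted p under 0.05 were found for 2, where 2.26% of all genes tested were lower. In 4 of 4 rabbits 5 members were lower, where 7.65% of all genes tested were. SPP1 (osteopontin), made by osteoblasts, osteoclasts and macrophages, was at 13.2, 598, 516 and 273 CPM in SLA Ti, against 1858, 407, 1157 and 339 CPM in Turned Ti (-1.49 ± 0.95). Of the signals that set osteoclast number, CSF1 was at 17.3, 14.5, 22.2 and 28.4 CPM in SLA Ti, against 18.2, 18.2, 12.6 and 13.5 CPM in Turned Ti (0.37 ± 0.36, 95% interval -0.4 to 1.15). TNFSF11 (RANKL) had a fold change of -0.02 with an interval of -1.63 to 1.58, and its decoy receptor TNFRSF11B, like SOST, did not pass the filter on low counts.

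Adhesion and matrix remodelling genes held a few members with lower values. ITGA2, a collagen-binding integrin subunit, was at 0.614, 5.3, 3.86 and 0.762 CPM in SLA Ti, against 9.31, 6.79, 16.2 and 3.07 CPM in Turned Ti (-2.02 ± 0.65, unadjusted p = 0.00748). ITGA10, the chondrocyte collagen receptor, and ITGAV, the subunit shared by vitronectin receptors, had fold changes of -1.4 ± 0.58 and -1.32 ± 0.52, and like ITGA2 were lower in SLA Ti in each rabbit. ZYX (zyxin) of focal adhesions was at 27.6, 12.4, 61 and 25.3 CPM in SLA Ti, against 8.93, 12.5, 5.99 and 19.1 CPM in Turned Ti (1.19 ± 0.45, and 0.58 without rabbit 3, unadjusted p = 0.151). Of 26 integrin and focal adhesion genes tested, 2 had higher and 3 lower values at an unadjusted p under 0.05, and the median was -0.12. Over all genes tested 5.98% were higher and 2.26% lower. LOXL4, a collagen crosslinking oxidase, was at 0.384, 6.97, 11.3 and 3.96 CPM in SLA Ti, against 5.08, 34.8, 20.9 and 12.9 CPM in Turned Ti (-1.86 ± 0.66, and -2.29 without rabbit 3, unadjusted p = 0.00245). The 15 collagen chains tested had a median of -0.52, by rabbit -1.68, -0.19, -1.22 and 0.53, and -0.09 without rabbit 3. The fibrillar chain COL24A1, at 0.537, 13.3, 15.3 and 5.33 CPM in SLA Ti against 7.7, 26.4, 33.1 and 22.1 CPM in Turned Ti, was lower in SLA Ti in each rabbit (-1.67 ± 0.65, unadjusted p = 0.0205). COL3A1, the collagen of early granulation tissue, was at 659, 4172, 931 and 1627 CPM in SLA Ti, against 4965, 2409, 3259 and 504 CPM in Turned Ti, with 2 rabbits on each side.

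Among genes of bone signalling, 1 of 30 BMP and TGF-beta genes tested had higher and 1 lower values at an unadjusted p under 0.05, where 5.98% of all genes were higher and 2.26% lower, with a median of -0.16. The lower one was ACVR1, a BMP type I receptor, at 0.998, 2.89, 2 and 1.07 CPM in SLA Ti against 4.92, 3.2, 4.05 and 3.07 CPM in Turned Ti, with no overlap (-1.26 ± 0.46, and -1.36 without rabbit 3, unadjusted p = 0.0132). The higher one was INHBA, an activin subunit, at 1.38, 2.96, 7.35 and 13.3 CPM in SLA Ti against 1.78, 2.85, 3.3 and 1.33 CPM in Turned Ti. BMP2 had a fold change of -0.66 with an interval of -2.09 to 0.77, on under 1 CPM in each of the 8 libraries. Of 22 genes on the Wnt list that were tested, 0 had an edgeR unadjusted p under 0.05, although FRZB, described above and not on that list, had an unadjusted p of 0.00349. The list median was -0.44, by rabbit 0.51, -0.54, -0.86 and -0.4. AXIN2, a target of canonical Wnt signalling, was at 2.38, 1.84, 3.55 and 0.457 CPM in SLA Ti, against 0.873, 1.43, 1.15 and 1.49 CPM in Turned Ti (0.62 ± 0.53, interval -0.52 to 1.75). Among 14 YAP and SRF targets and 11 Notch genes, 0 had an edgeR unadjusted p under 0.05.

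Vessel genes were also mixed. The 15 endothelial genes tested had a median of -0.2, and CDH5 (VE-cadherin), which defines endothelium, was at 25.9, 27.4, 10.6 and 7.16 CPM in SLA Ti, against 19.7, 35.3, 19.7 and 16 CPM in Turned Ti (-0.43 ± 0.42). PECAM1, shared by endothelium and leukocytes, was at 43.6, 46.5, 410 and 77.3 CPM in SLA Ti, against 34.7, 42.6, 26.7 and 38.6 CPM in Turned Ti, and its fold change of 1.52 ± 0.59 was 0.48 without rabbit 3 (unadjusted p = 0.28).

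Levels of erythroid, fat and muscle genes varied between the libraries. Of 11 erythroid genes tested, SLC4A1, the anion exchanger of red cells, was the only one at an unadjusted p under 0.05, at 88.5, 27.9, 6.17 and 134 CPM in SLA Ti against 32.8, 3.3, 0.717 and 134 CPM in Turned Ti (1.73 ± 0.55). SLC25A39 overlaps SLC4A1 on the same strand. The erythroid median was 1.29, by rabbit 1.43, 2.77, 0.8 and 0. Over all genes tested 5.98% were higher at an unadjusted p under 0.05. The fat hormone ADIPOQ was at 216, 13, 40.5 and 16.2 CPM in SLA Ti, against 27.8, 11.5, 15.5 and 25.4 CPM in Turned Ti. DES (desmin), of muscle fibres, was at 0, 0.296, 0.668 and 0.229 CPM in SLA Ti, against 24.4, 0.689, 0.574 and 0.332 CPM in Turned Ti, so that its fold change of -2.53 ± 1.23 rested on Turned Ti replicate 1. The part of these tissues in the differences above was not tested.

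Genes that answer metal load, measured because the study also used copper, are given next. MT1A, a metallothionein, was at 2, 3.13, 5.5 and 8 CPM in SLA Ti, against 2.75, 2.66, 5.31 and 5.14 CPM in Turned Ti (0.19 ± 0.43, 95% interval -0.73 to 1.11). HMOX1 (heme oxygenase 1) was at 13.9, 16.6, 17.8 and 21.9 CPM in SLA Ti, against 12.4, 37.5, 29 and 18.8 CPM in Turned Ti (-0.49 ± 0.6, interval -1.76 to 0.77). Metallothionein genes resemble each other closely, so their reads may be misassigned. Of 13 metallothionein and metal transport genes tested, 2 had higher and 1 lower values at an unadjusted p under 0.05, with a median of -0.42. Over all genes tested 5.98% were higher and 2.26% lower. Of 19 genes of the oxidative stress response tested, 0 had an edgeR unadjusted p under 0.05, with a median of 0.27, and of 21 cell cycle genes also 0, with a median of 0.35.

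The rabbits differed in how far their implants were apart. The SD over genes of the log2 difference between a rabbit's SLA Ti and Turned Ti libraries was 1.2, 0.62, 1.33 and 0.81 in rabbits 1 to 4. Genes at least 2-fold higher in SLA Ti numbered 2177, 591, 2132 and 1066, and genes at least 2-fold lower 1756, 465, 1486 and 834. The differences of rabbits 1 and 3 correlated at r = 0.44 across the 11617 genes, and the other 5 pairs of rabbits at -0.11 to 0.19; these are descriptions across genes, which are not independent. Rabbits 1 and 3 also shared a layout. In each, both titanium implants sat in the same tibia, SLA Ti at the proximal end and Turned Ti at the distal end. In rabbits 2 and 4 they sat in opposite tibiae, SLA Ti at the distal end and Turned Ti at the proximal end. The differences of rabbits 2 and 4 correlated at r = 0.04. Within a rabbit, surface and end cannot be told apart, while over the 4 rabbits each surface took each end in 2 animals. With side and end added to the fit, edgeR again called the same 1 gene, and 787 genes had higher and 211 lower values at an unadjusted p under 0.05.

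The authors' deposited table gives its own comparison of these groups, with a test that is not stated. Of 29587 genes, 811 had a p under 0.05 and at least a 2-fold change by the authors' deposited table, 669 higher and 142 lower in SLA Ti, and 555 of the 681 tested here had the same direction at an unadjusted p under 0.05. At a q under 0.05 the authors' deposited table holds 18 genes, 17 higher and 1 lower, and all 18 had an unadjusted p under 0.05 in the edgeR fit here. The 1 lower gene in the authors' deposited table is JPH1 (log2 fold change -3, q = 0.00443), and PTGS2 (5.92, q = 0.000692), IL1R2 (5.26, q = 0.00192), CXCL5 (7.64, q = 0.00443) and FPR2 (4.25, q = 0.0236) are among the 17 higher ones. For CXCL8, IL1B and ENSOCUG00000013321 the authors' deposited table prints log2 fold changes of 9.15, 6.84 and 8.58 beside a p of 1.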

How the data were processed

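Per the labels' protocols, total RNA went into a strand-specific kit and both fragment ends were read. The submitters' processing notes name STAR 2.7.1a and Cufflinks 2.2.1, without their roles, and no genome build is stated in the labels or headers. Read counts were deposited by the authors for 29587 genes, and are taken here as estimated counts because some genes without reads carry an RPKM above 0 (all values are whole). Per the file headers, the same table gives the authors' log2 fold changes, p-values and q-values for this pair of groups, from a test that is not named. A symbol was given for 14537 genes, 69 were named from a RefSeq description and 16 from a full name. Where several genes shared a symbol, the one with most reads kept it.

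The 16 libraries were fitted together in edgeR 4.0.16 (R 4.3.3) as group means plus rabbit, with TMM scaling of the 11617 genes (8871 named) that filterByExpr kept at a minimum count of 10 (common dispersion 0.178). SLA Ti was set against Turned Ti by a quasi-likelihood F test (two-sided), adjusted by Benjamini-Hochberg over all genes tested, at a threshold of 0.05. The SE was derived from the fold change and F. CPM use the scaled library sizes, and differences within a rabbit are of log2 CPM with a prior count of 2. Ratios of counts have exact 95% intervals that cover counting error only. Libraries are paired by animal: the SLA Ti and Turned Ti libraries of rabbits 1 to 4 deviated from their group means with correlations of 0.07, 0.2, 0.12 and 0.27. No libraries were identical, and replicates differed by more than counting noise (chi-square per degree of freedom 116 to 885).

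DESeq2 1.42.0, other scaling, filters and sets of libraries were the alternatives, and the edgeR steps were tested on simulated data. The 45 gene lists and the rule for named genes were chosen with earlier results of these data known. The rule names the 10 named genes of smallest p in each direction where fewer than 10 pass, up to 4 members of smallest p per list, and a set of 30 genes. MMP9, MNDA, CYBB, CCL2, CXCL10, CD80, CD86 and NOS2 were named after their values were seen. One gene that the rule names is not reported here.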

Additional observations from a re-analysis of the deposited data

Results flagged for a closer look

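Within each group of 4 libraries, a library was singled out where its gap to the nearest other, divided by the range of the group, exceeded the 95% critical value for 4 samples. This happened in 24 of 406 groups examined, and chance gives about 1 in 20. Turned Ti replicate 1 accounts for 8 of them, Turned Ti replicate 3 for 5, SLA Ti replicate 1 and Turned Ti replicate 4 for 3 each, SLA Ti replicate 4 for 2, and SLA Ti replicates 2 and 3 and Turned Ti replicate 2 for 1 each. The value given below is that gap over the range, on log2 CPM for genes and on percent for the share of nuclear rRNA.

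Among SLA Ti libraries, replicate 1 was low in ITGA10 (0.46 CPM against 4.19 to 5.43, value 0.888), in COL11A1 (28.6 against 268 to 420, value 0.832) and in MET (6.45 against 13.1 to 14.6, value 0.867). Replicate 2 was low in LCN2 (40.7 CPM against 426 to 640, value 0.852). Replicate 3 was high in TYROBP, a signalling adaptor of myeloid cells (22.6 CPM against 10 to 10.2, value 0.98). Replicate 4 was high in mitochondrial ND6 (18.7 CPM against 4.77 to 4.95, value 0.973) and in the share of nuclear rRNA (44.8% against 1.83% to 5.23%, value 0.921).

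In Turned Ti replicate 1 the genes of bone-forming cells were low: RUNX2 at 2.78 CPM (0.939), SP7 at 0.55 (0.895), ALPL at 2.04 (0.847), BGLAP at 0.42 (0.848) and DMP1 at 0.356 (0.868). ARG1 was also low there, at 0.129 CPM (0.879), while the muscle genes DES at 24.4 CPM (0.854) and SYNPO2 at 5.95 (0.896) were high. Turned Ti replicate 2 was high in DLL4, a Notch ligand, at 6.05 CPM (0.872). Turned Ti replicate 3 was low in IL1R2 at 0.43 CPM (0.873) and FOS at 9.82 (0.929), and high in IGF1 at 81.4 (0.879) and LGR4 at 11 (0.901). It also held the only Turned Ti reads of ENSOCUG00000013321 (value 1). Turned Ti replicate 4 was high in CHI3L1 at 60.4 CPM (0.86), RRM2 at 10.7 (0.943) and CEBPA at 6.72 (0.891).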

How the results depend on the processing

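The count of genes called between SLA Ti and Turned Ti was 1 with rabbit as a replicate block. Without the block it was 0 (801 higher and 247 lower at an unadjusted p under 0.05), with only the 8 titanium libraries it was 0 (433 and 235), and without the Turned Cu libraries it was 0 (643 and 369). It was 193 with no filter on low counts and 52 with DESeq2 (750 higher and 411 lower at an unadjusted p under 0.05), which gave no adjusted p to 4730 genes. The next alternatives were chosen after seeing the data: DESeq2 called 4 genes without SLA Ti replicate 3 and 1 without rabbit 3. Leaving out single libraries or rabbits gave 0 to 2 genes with edgeR. It was 0 without SLA Ti replicate 3, without Turned Ti replicate 3 (260 higher and 73 lower at an unadjusted p under 0.05), without rabbit 3 and without rabbit 4 (969 and 203). ENSOCUG00000013321 itself did not pass the filter on low counts with only the titanium libraries, without Turned Cu or without rabbit 3, so there it was not tested. The cause of the other differences was not tested. The difference in nuclear rRNA share ran from -18.4 to 0.878 percentage points when 1 library was left out.

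Of 199 named genes, 25 had the opposite sign under at least 1 alternative, and the smallest p among these in the reported fit was 0.131. With other size factors or with side and end in the fit, the 199 moved by less than 1 SE. Across alternatives the median of the inflammatory list ran from 2.14 to 4.25, of the mature neutrophil list from 1.42 to 3.04, of the osteoblast list from -1.03 to -0.52 and of the osteoclast list from -1.16 to -0.42.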
